A study of Mus musculus with 5 samples.

Results

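The 9 genes described here encode small leucine-rich proteoglycans of the extracellular matrix (ECM) and were chosen by their symbols (Dcn, Lum, Ogn, Fmod, Bgn, Omd, Prelp, Aspn and Podn) from the 23420 gene symbols measured in the mouse dentate gyrus (DG). The choice was made with earlier results in view, because Dcn, Ogn and Fmod had differed strongly and in opposite ways between the housing groups. All values below are therefore descriptions of these libraries and not tests. Each of 5 groups was a single sequencing library of pooled RNA from wild-type male CD1 mice, an outbred strain, whose age the labels give as 4 months. LD mice lived alone with a locked disk, CE mice (complex environment) lived in social groups with a locked disk and tunnels, and RUN mice lived alone with a running disk, all for 4 weeks, with the RNA of 8 mice in each pool. The L-RUN and H-RUN pools held the RNA of the 4 RUN mice that ran least and the 4 that ran most, so RUN was a second library of the same RNA and not an independent group. LD and RUN mice were isolated and CE mice were not, so company and tunnels cannot be told apart in CE. No group had a replicate library, and no value below has a p-value.

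Small leucine-rich proteoglycans have a short protein core of leucine-rich repeats that curves into a solenoid, and most carry chondroitin, dermatan or keratan sulfate chains. They bind collagen as it assembles and help to set the thickness and spacing of its fibrils. Several also bind growth factors and their receptors, with decorin and TGF-beta as the best known pair. In the brain, fibroblasts of the leptomeninges and of the walls of larger vessels are a main source of many of these transcripts.

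The measurement was a regularized log (rlog) value, which is a read count on the log2 scale that was normalized over all 5 libraries and shrunk towards the mean of its gene. Shrinkage is strongest for weakly expressed genes, so their differences are understated. All 9 genes had a mean value of at least 5, the level above which 13550 genes are called expressed here. A gene was called higher or lower in a library at a difference of at least 0.3 on this scale, the cut-off of the study. As the only measure of error, the RUN library was set against a calculated pool of L-RUN plus H-RUN in equal parts, called the mixture below. This gave a technical SD of 0.0365 for a difference between 2 libraries over all expressed genes, and of 0.037 to 0.047 at the expression levels of these 9 genes. It covers the making and sequencing of libraries and not the variation between mice, and the depth of the libraries is unknown. The 9 listed markers of dentate granule cells were all expressed, with LD values from 11.10 (Trpc6) to 13.56 (Fam163b). All 8 listed markers of CA1 and CA3 pyramidal cells were expressed too. The purity of the dissection was not assessed.

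The genes form 3 clusters and 2 single loci in the GRCm38 build, with gene models from GENCODE. Dcn (chromosome 10, 97479609 to 97518143) lies 47.0 kb from Lum (97565128 to 97572703). Aspn (chromosome 13, 49544443 to 49567565), Omd (49582462 to 49592822) and Ogn (49608046 to 49624501) follow each other on 1 strand with gaps of 14.9 and 15.2 kb, and the related gene Ecm2 lies 11.7 kb before Aspn. Prelp (chromosome 1, 133910304 to 133921414) and Fmod (134037254 to 134048277) stand 115.8 kb apart on opposite strands. Bgn lies on chromosome X (73483602 to 73495933) and Podn on chromosome 4 (108014791 to 108096445). Prelp shares 350 exonic bases with the antisense transcript Gm15851 and Aspn shares 7 with Cenpp, and their reads cannot be told apart there where counting ignored the strand.

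Promoters are shown for 2 pairs of genes from the same cluster, because in each pair 1 gene passed the cut-off in a comparison with LD and the other did not. Fmod and Prelp are the pair on chromosome 1, and Ogn and Aspn the pair on chromosome 13. Each sequence holds the 250 bases before the start that RefSeq annotates (GRCm38.p6), 5′ to 3′ on the strand of the gene. For Ogn this start lies before the GENCODE start at 49608046. A search for the bases just after the RefSeq start in the GENCODE transcripts of Ogn could not succeed, because each stretch searched for begins before the GENCODE start. Which of these starts is used was not tested. Capitals mark the SMAD box CAGAC and the TATA box TATAAA on either strand, and matches of 1 motif on both strands may overlap.
Fmod (chr1:134037004-134037253, plus strand): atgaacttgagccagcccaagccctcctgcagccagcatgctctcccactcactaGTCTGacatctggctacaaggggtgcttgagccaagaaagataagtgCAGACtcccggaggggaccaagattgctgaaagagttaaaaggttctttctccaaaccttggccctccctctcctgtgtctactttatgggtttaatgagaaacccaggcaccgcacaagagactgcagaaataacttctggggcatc
Prelp (chr1:133921402-133921651, minus strand): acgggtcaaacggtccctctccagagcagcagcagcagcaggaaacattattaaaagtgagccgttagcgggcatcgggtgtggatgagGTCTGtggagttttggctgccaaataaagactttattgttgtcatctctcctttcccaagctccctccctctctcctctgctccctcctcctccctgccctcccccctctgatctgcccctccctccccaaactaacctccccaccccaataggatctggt
Ogn (chr13:49607765-49608014, plus strand): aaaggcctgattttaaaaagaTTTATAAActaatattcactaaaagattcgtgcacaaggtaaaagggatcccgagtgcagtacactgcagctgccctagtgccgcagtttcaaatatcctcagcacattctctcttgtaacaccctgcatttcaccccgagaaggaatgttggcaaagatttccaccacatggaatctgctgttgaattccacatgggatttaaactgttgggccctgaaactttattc
Aspn (chr13:49544193-49544442, plus strand): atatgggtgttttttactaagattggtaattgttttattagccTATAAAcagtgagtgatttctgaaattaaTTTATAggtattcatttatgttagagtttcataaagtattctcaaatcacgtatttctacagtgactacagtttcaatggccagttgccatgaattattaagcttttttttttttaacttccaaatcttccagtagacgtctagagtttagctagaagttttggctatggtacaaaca

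RefSeq promoters were found for 7 of the 9 genes, with Podn having 2 annotated starts, and Dcn and Lum were not in the table. In this window of 250 bases, the SMAD box was present in Fmod, at 2 positions, and in Prelp, at 1 position, against 42.2% of all 32851 promoters. TATAAA was present in Ogn and Aspn, at positions -229 and -227 and at -207 and -178 from the start, against 12.4% of all promoters. The GC box GGGCGG was present in Bgn and in 1 of the windows of Podn, against 32.7%, and neither the AP-1 site TGANTCA (6.75% of all promoters) nor the forkhead site TGTTTAC (3.17%) was present in any. The GC content was 51.2% in Fmod, 55.6% in Prelp, 42.0% in Ogn and 30.0% in Aspn, beside a median of 52.4% for all promoters. Within each pair both genes held the same motif, so neither motif was particular to the gene past the cut-off. These matches describe letters and not bound sites.

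Per length of merged exons, the LD library had its highest level among these genes for Ogn, with 7.59 on the log2 scale per kb, followed by Prelp with 7.33, Dcn with 6.91 and Lum with 6.67. Omd had a level of 6.27 per kb, Fmod 5.86 and Bgn 5.6, and Aspn (4.43) and Podn (3.53) were lowest. With these GENCODE lengths, Ogn and Prelp, and not the better known decorin and biglycan, had the highest levels. The reads were counted on RefSeq genes, whose lengths were not used, so this order may not hold for other gene models. The place of Bgn depends on the gene model, because its level was 6.80 per kb of its longest transcript, and that of Dcn was then 7.22.

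**Figure D1:**
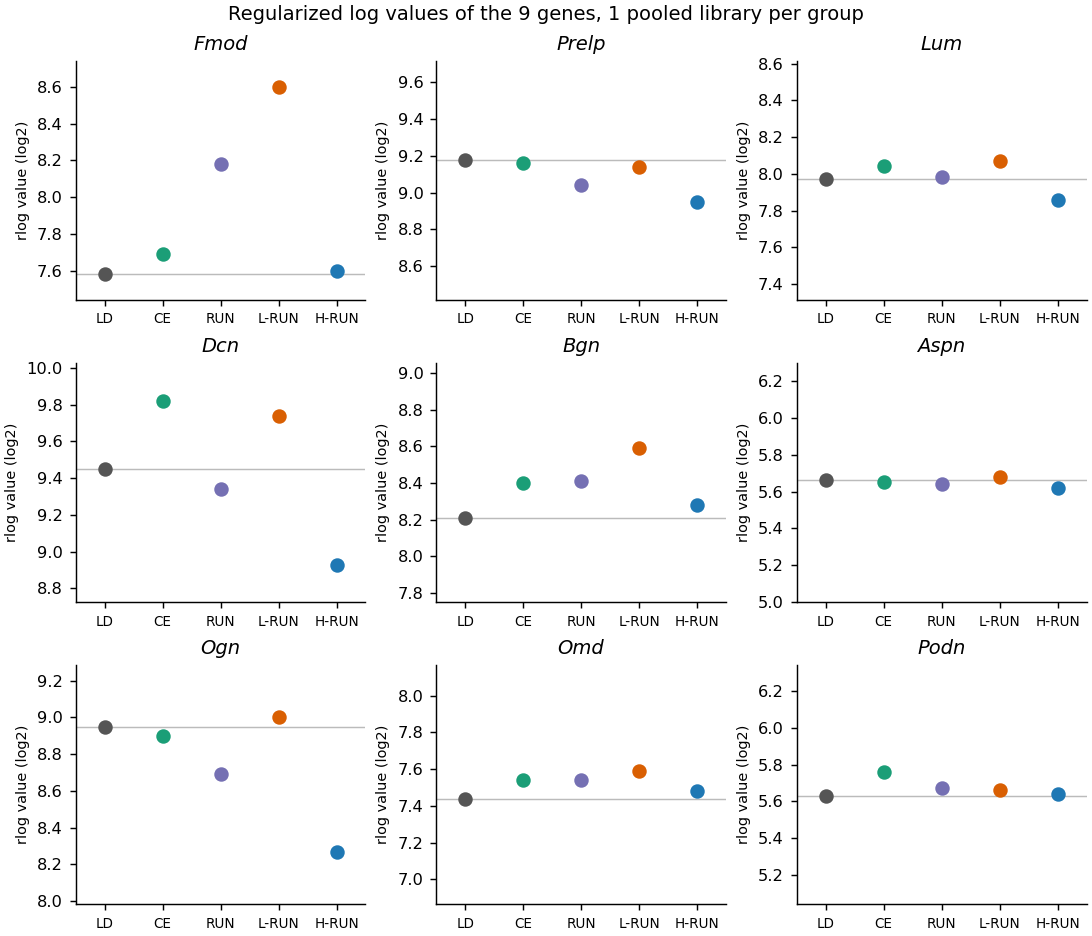
The rlog value (log2 scale) of each of the 9 genes is plotted for the 5 pooled libraries, with 1 point per library, the same span of values in all panels and a grey line at the LD value. Fmod is highest in L-RUN at 8.60, Dcn and Ogn are lowest in H-RUN at 8.93 and 8.27, and Aspn stays between 5.62 and 5.68.

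Fmod encodes fibromodulin, a keratan sulfate proteoglycan of class II that binds fibrillar collagen and is abundant in tendon and cartilage. Its rlog value was 7.58 in LD, 7.69 in CE, 8.60 in L-RUN, 8.18 in RUN and 7.60 in H-RUN. L-RUN was high, RUN had an intermediate value, and the other libraries lay close together, with CE and H-RUN apart by less than 2 technical SD and H-RUN and LD likewise. The difference from LD was 1.01 in L-RUN, a 2.02-fold higher level and 21.5 times the technical SD of 0.047, and 0.60 in RUN. It was 0.10 in CE (2.1 technical SD) and 0.01 in H-RUN (0.3 technical SD), both within the cut-off. Among the 13550 expressed genes, Fmod had the third highest difference from LD both in RUN and in L-RUN. In the RUN library, made from the RNA of both running pools, the measured value differed from that of the mixture by less than 0.001, or by 0.085 where the mixture was averaged on the log scale. In pooled tissue, more cells of a type and more RNA per cell cannot be told apart, nor can fewer cells and less RNA per cell, and this holds for all genes below.

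Dcn encodes decorin, the class I proteoglycan with a single chondroitin or dermatan sulfate chain that coats collagen fibrils and binds TGF-beta and several receptor tyrosine kinases. Its rlog value was 9.45 in LD, 9.82 in CE, 9.74 in L-RUN, 9.34 in RUN and 8.93 in H-RUN. CE and L-RUN were high and apart by less than 2 technical SD, and H-RUN was low, with LD and RUN between. The difference from LD was 0.37 in CE, 0.29 in L-RUN, just within the cut-off, and -0.12 in RUN. In H-RUN it was -0.52, equal to -12.5 technical SD of 0.042, and the fourth lowest of all expressed genes. Dcn thus stood on opposite sides of LD in the 2 running pools. Between CE and H-RUN, Dcn had the highest difference of all expressed genes, 0.89, a 1.85-fold level. The RUN value was 0.052 below that of the mixture, equal to -1.45 SD and the largest residual among the 9 genes, but 0.003 above a mixture averaged on the log scale.

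Ogn encodes osteoglycin, also called mimecan, a class III member first known from bone that is also expressed in heart, vessels and meninges. Its rlog value was 8.95 in LD, 8.90 in CE, 9.0 in L-RUN, 8.69 in RUN and 8.27 in H-RUN. H-RUN was low and the RUN pool was below LD, CE and L-RUN, which differed from their neighbours in the order of levels by less than 2 technical SD. The difference from LD was -0.68 in H-RUN, a 1.6-fold lower level, equal to -14.3 technical SD, and the lowest value of all 13550 expressed genes in that comparison. It was -0.26 in RUN, within the cut-off, and 0.05 in L-RUN. RUN differed from the mixture by 0.009, which is less than 1 technical SD, and by 0.054 from the mixture averaged on the log scale. Of the 64 expressed genes called lower in H-RUN than in LD, 5 were above LD in L-RUN. These were Dcn, Ogn, Gpr101, Htr2c and A730098P11Rik, which were singled out after their values were seen. Ogn was among them by a difference of only 1.0 technical SD in L-RUN. Both differences share the LD library and are not independent, so nothing is read from this count.

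**Figure D2:**
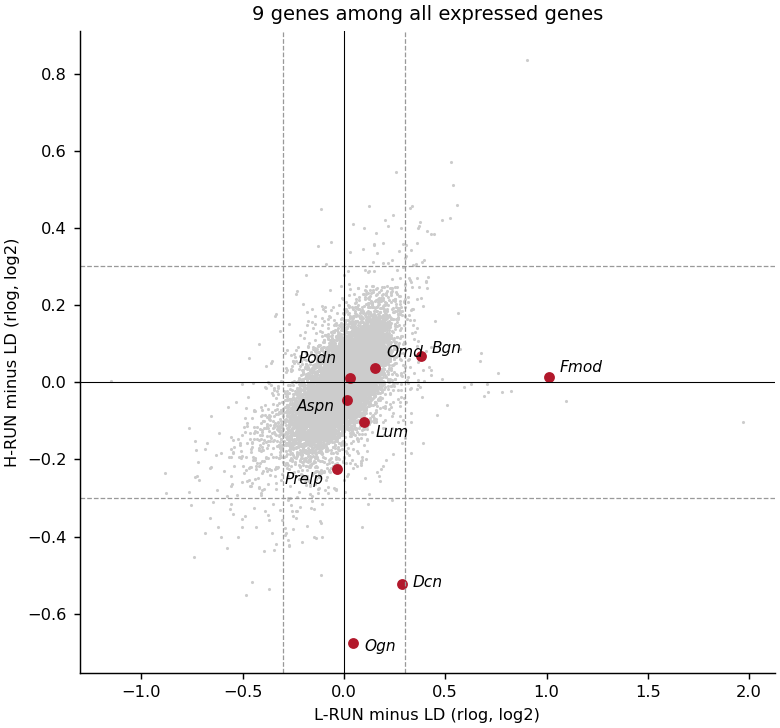
The difference from LD in L-RUN (horizontal) is plotted against that in H-RUN (vertical), both on the rlog log2 scale, for 13550 expressed genes in grey and the 9 proteoglycan genes in red, with dashed lines at 0.3 in either direction. Fmod lies far to the right at 1.01 and close to 0 on the vertical axis, while Dcn and Ogn lie below most other genes at -0.52 and -0.68, to the right of 0 on the horizontal axis. Both axes share the LD library.

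Bgn encodes biglycan, the class I relative of decorin, which carries a pair of chains, binds collagen and can act on Toll-like receptors when it is released from the matrix. Its rlog value was 8.21 in LD, 8.4 in CE, 8.59 in L-RUN, 8.41 in RUN and 8.28 in H-RUN. All other libraries were above LD, with L-RUN the highest. The difference from LD was 0.38 in L-RUN, past the cut-off, 0.20 in RUN, 0.19 in CE and 0.07 in H-RUN, where it was under 2 times the technical SD. The order of libraries was the same as for Fmod, over a narrower range of 0.38 against 1.01. When LD was replaced by the average of LD with CE, Bgn no longer passed the cut-off in L-RUN.

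Lum (lumican, a keratan sulfate proteoglycan that keeps the cornea clear) and Prelp (a class II member whose basic end binds heparan sulfate) stayed within the cut-off in each comparison with LD. The rlog value of Lum was 7.97 in LD, 8.04 in CE, 8.07 in L-RUN, 7.98 in RUN and 7.86 in H-RUN. That of Prelp was 9.18 in LD, 9.16 in CE, 9.14 in L-RUN, 9.04 in RUN and 8.95 in H-RUN. Both were lowest in H-RUN, with differences from LD of -0.10 for Lum (-2.2 technical SD) and -0.23 for Prelp (-5.4 technical SD). Lum lies next to Dcn on chromosome 10, and its difference between L-RUN and H-RUN was 0.21 where that of Dcn was 0.81. Prelp lies next to Fmod, and in L-RUN it differed from LD by -0.04 where Fmod differed by 1.01.

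Omd (osteomodulin, an acidic class II member of mineralized tissue) had rlog values of 7.44 in LD, 7.54 in CE, 7.59 in L-RUN, 7.54 in RUN and 7.48 in H-RUN. Neighbours in the order of levels were apart by less than 2 technical SD. The difference between the ends, L-RUN minus LD, was 0.15, or 3.5 technical SD, and those of CE and RUN from LD were 2.4 and 2.3 technical SD. Aspn (asporin, a class I member that binds TGF-beta and collagen) ranged from 5.62 in H-RUN to 5.68 in L-RUN, and 88.8% of expressed genes had a larger range. Podn (podocan, of class V) ranged from 5.63 in LD to 5.76 in CE, and its value of 0.13 in CE was 3.5 times the technical SD. Aspn and Podn are in the lowest decile of expression, where the shrinkage of rlog values is strong, and small ranges there do not show that the RNA was unaltered. Omd and Aspn, which share a cluster with Ogn, differed between L-RUN and H-RUN by 0.12 and 0.06 where Ogn differed by 0.72. The cluster also holds Ecm2, whose rlog value was 8.76 in LD, 8.67 in CE, 8.5 in L-RUN, 8.45 in RUN and 8.43 in H-RUN, with differences from LD of -0.33 in H-RUN, -0.31 in RUN and -0.26 in L-RUN.

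**Figure D3:**
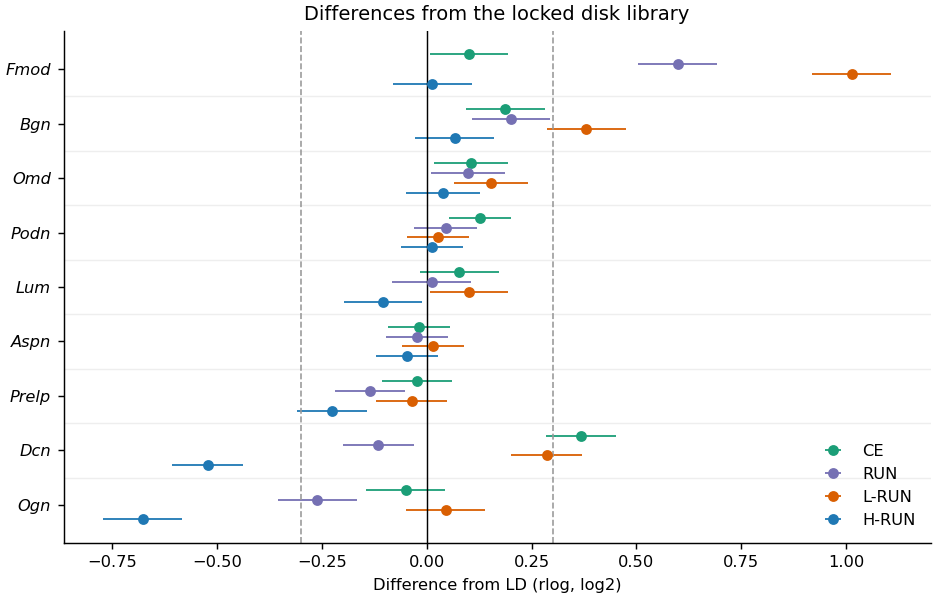
The difference of each library from LD (rlog, log2 scale) is shown for the 9 genes as a point, with bars of 2 technical SD to each side and dashed lines at 0.3 in either direction. The points of Fmod spread to the right, with L-RUN at 1.01, those of Ogn spread to the left, with H-RUN at -0.68, and those of Dcn lie on both sides.

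The members past the cut-off were counted beside the share of all expressed genes past it, and nothing is read from these counts, since they rest on the values that chose the genes. In CE, 1 of the 9 genes was higher than in LD (Dcn) and 0 were lower, against 0.332% and 0.266% of expressed genes. In RUN, 1 was higher (Fmod) and 0 were lower, against 0.362% and 0.952%. In L-RUN, 2 were higher (Fmod and Bgn) and 0 were lower, against 0.797% and 2.33%, and in H-RUN 0 were higher and 2 were lower (Dcn and Ogn), against 0.354% and 0.472%. The values nearest to the cut-off were, just within it, 0.29 for Dcn in L-RUN, -0.26 for Ogn in RUN and -0.23 for Prelp in H-RUN, and, just past it, 0.37 for Dcn in CE and 0.38 for Bgn in L-RUN. These 4 comparisons share the LD library. Over all expressed genes the balance of directions depended in part on transcript length. With the length trend removed, 41 genes were higher and 18 lower in CE (45 and 36 without the removal), and 52 and 59 in RUN (49 and 129). The numbers were 99 and 182 in L-RUN (108 and 316), where lower genes still outnumbered higher ones, and 40 and 45 in H-RUN (48 and 64). The median difference over the 9 genes was 0.10 both in CE and in L-RUN, 0.01 in RUN and -0.05 in H-RUN, while the medians over all expressed genes lay between -0.0035 and -0.0013.

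L-RUN and H-RUN came from different mice, and the comparison between them does not use LD. Here all 9 genes were higher in L-RUN, with differences from 0.02 for Podn to 1.0 for Fmod and a median of 0.21, against -0.0028 over all expressed genes. Those of Podn and Aspn were only 0.4 and 1.7 technical SD. The genes were chosen with earlier results known, so nothing is read from the shared direction. Past the cut-off were 4 genes, Fmod (1.0), Dcn (0.81), Ogn (0.72) and Bgn (0.31), where 0.561% of expressed genes were higher by as much and 0.974% were lower (76 and 132 genes, or 82 and 90 with the length trend removed). For Fmod and Bgn, L-RUN was above LD and H-RUN was less than 2 technical SD from LD. For Ogn, H-RUN was below LD and L-RUN was less than 2 technical SD from LD. For Dcn, both pools departed from LD. Of the 9 genes, 8 (all but Podn) had a RUN value between the values of both running pools, as did 58.3% of expressed genes. CE was likewise above H-RUN for all 9 genes, from 0.03 for Aspn to 0.89 for Dcn. The differences of Aspn, Omd and Fmod were only 0.8, 1.5 and 1.9 technical SD. Past the cut-off were Dcn and Ogn (0.63), against 0.708% of expressed genes higher and 0.354% lower. Between CE and L-RUN, Fmod was lower in CE by a difference of -0.91 and 0 genes were higher, against 0.509% and 1.38% of expressed genes lower and higher, and the 8 others lay between -0.19 and 0.10. Across the libraries, H-RUN was the lowest for 5 of the 9 genes and LD for 4, against 15.7% and 25.8% of expressed genes. L-RUN was the highest for 6, against 24.1%. For every gene lowest in LD, and for Aspn in H-RUN, the next library was less than 2 technical SD away. L-RUN was the highest by more than 2 technical SD only for Fmod and Bgn, so nothing is read from these counts.

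The profile of a gene over the 5 libraries, centred on its mean, was compared with those of 50 expressed genes outside the family whose range was at least 0.6. The distance given is the root mean square difference on the log2 scale. Closest to Fmod was the growth factor Igf2 (0.048), followed by the sulfate transporter Slc13a4 (0.076), the lipid carrier Apod (0.099), the retinoic acid-synthesizing enzyme Aldh1a2 (0.102) and the GABA and taurine transporter Slc6a13 (0.120). These genes were higher in L-RUN than in LD by 0.69 (Slc6a13) to 1.096 (Igf2) and were within 0.05 of LD in H-RUN. Closest to Dcn were the orphan receptor Gpr101 (0.1), the serotonin receptor Htr2c (0.127), the collagen chain Col5a1 (0.129), the zinc finger gene Plagl1 (0.132) and Erdr1 (0.134). The genes closest to Ogn were the same 5, at larger distances of 0.183 to 0.199. In contrast to Ogn, they were higher in CE than in LD, by 0.44 to 0.53. Within the family, Dcn and Ogn were 0.137 apart, while Fmod was 0.403 from Dcn and 0.387 from Ogn.

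**Figure D4:**
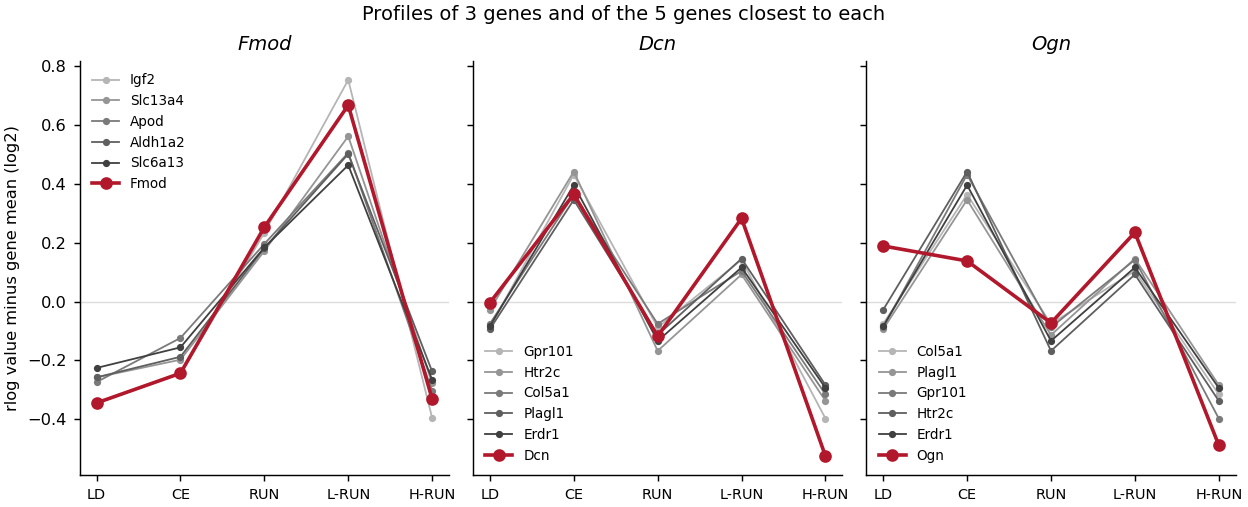
The rlog value minus the mean of its gene (log2 scale) is plotted over the 5 libraries for Fmod, Dcn and Ogn in red and for the 5 genes closest to each in grey. The genes closest to Fmod share its peak in L-RUN, those closest to Dcn share its high CE and low H-RUN values, and Ogn departs from its own set in LD and CE.

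Collagens are structural partners of these proteoglycans, and 9 of the 10 collagen genes listed were expressed. Of these, 5 were higher than in LD in CE and 5 in L-RUN, 1 was higher in RUN, and 0 passed the cut-off in H-RUN, with medians of 0.39, 0.40, 0.19 and -0.01 in CE, L-RUN, RUN and H-RUN. The shares of all expressed genes that were higher were 0.332%, 0.797%, 0.362% and 0.354% in the same order. The collagens too were listed with earlier results known, so nothing is read from their counts. In L-RUN, Col1a2 (0.67) and Col3a1 (0.59) had the largest values, and in CE Col6a1 (0.52) and Col1a2 (0.45). None of these collagens fell below LD in H-RUN past the cut-off, where Dcn and Ogn did, and the lowest of them was Col5a1 with -0.24.

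The genes that act on or with the proteoglycans were also compared with LD. These lists too were made with earlier results known, so nothing is read from their counts. The shares of all expressed genes that were higher were 0.332%, 0.362%, 0.797% and 0.354% in CE, RUN, L-RUN and H-RUN. Those that were lower were 0.266%, 0.952%, 2.33% and 0.472% in the same order. Of 13 expressed genes for bound growth factors and receptors, 0 were higher than in LD in any of the 4 groups, and Tgfbr1, a TGF-beta receptor, was lower in RUN (-0.33) and H-RUN (-0.42). The TGF-beta ligand genes stayed within the cut-off, with values in H-RUN of -0.02 for Tgfb1, -0.16 for Tgfb2 and -0.04 for Tgfb3. Of 20 expressed genes for the synthesis of chondroitin and dermatan sulfate, Xylt1, which starts the chain on the core protein, was lower in L-RUN (-0.33), and the others stayed within the cut-off in all 4 groups. All 6 expressed genes for keratan sulfate synthesis stayed within the cut-off, between -0.11 and 0.21. Of the 9 other leucine-rich proteoglycan genes, Chadl, Nyx and Ecm2 were expressed, and Ecm2 was lower in RUN (-0.31) and H-RUN (-0.33).

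Many markers of leptomeningeal fibroblasts were higher than in LD in L-RUN and RUN, as Fmod was. Of the genes close to Fmod in profile, Igf2, Slc13a4, Aldh1a2 and Slc6a13 are among the markers. The profiles were taken only from genes with a range of at least 0.6, and the markers were listed with earlier results known. Nothing is therefore read from this overlap. Of the 19 markers, none of which is among the 9 genes, 17 were expressed and 0 were at 0 in the libraries. In L-RUN 12 were higher than in LD, in RUN 8, in CE 1 and in H-RUN 0, with medians of 0.43, 0.30, 0.06 and -0.005 in L-RUN, RUN, CE and H-RUN. The shares of all expressed genes that were higher were 0.797%, 0.362%, 0.332% and 0.354% in the same order. The markers were listed with earlier results of these data known, so nothing is read from their counts. The log2 of their summed level was 12.73 in LD, 12.91 in CE, 14.14 in L-RUN, 13.61 in RUN and 12.69 in H-RUN, and without Ptgds, the most abundant of them, 11.81, 11.88, 12.43, 12.13 and 11.82 in the same order. Foxc1, a transcription factor of these cells, differed from LD by 0.30 in L-RUN, just within the cut-off, and by 0.03 in H-RUN. The part of these cells in the values of Fmod and Bgn was not tested. In H-RUN, where Dcn and Ogn were lower by 0.52 and 0.68, these markers were within 0.103 of LD, and in CE, where Dcn was higher, 1 of 17 passed the cut-off (Ptgds, 0.30).

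Markers of other cell types were counted in the same way. They too were listed with earlier results known, so nothing is read from their counts. In CE, RUN, L-RUN and H-RUN, 0.332%, 0.362%, 0.797% and 0.354% of all expressed genes were higher than in LD. In the same order, 0.266%, 0.952%, 2.33% and 0.472% were lower. Of 12 mural cell markers, 1 was higher in L-RUN (Vtn, 0.43) and 0 passed the cut-off in CE, RUN and H-RUN. Of 9 endothelial markers, Flt1 was lower in RUN (-0.31) and L-RUN (-0.43), and 0 were higher in any group. Of 10 choroid plexus markers, 2 were expressed, and both stayed within 0.11 of LD. The 9 markers of granule cells had medians between -0.15 and -0.04, with 1 higher in RUN, 2 higher and 1 lower in L-RUN and 1 higher in H-RUN. Of 8 CA1 and CA3 pyramidal markers, 1 was higher in CE (Fibcd1, 0.31) and 1 was lower in RUN (Fibcd1, -0.46). In L-RUN 4 were lower, among them Fibcd1 (-0.46), Wfs1 (-0.33) and Mpped1 (-0.33). In H-RUN 1 was higher (Bok, 0.41) and 1 lower (Fibcd1, -0.52). Like Dcn, Fibcd1 was above LD in CE and below it in H-RUN, but it was below LD in L-RUN, where Dcn was above. Of 6 astrocyte markers, 1 was higher and 2 were lower in L-RUN. The 6 oligodendrocyte markers had values between -0.235 and 0.08 and passed the cut-off in none of the groups. The part of these cells in the values of the 9 genes was not tested.

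**Figure D5:**
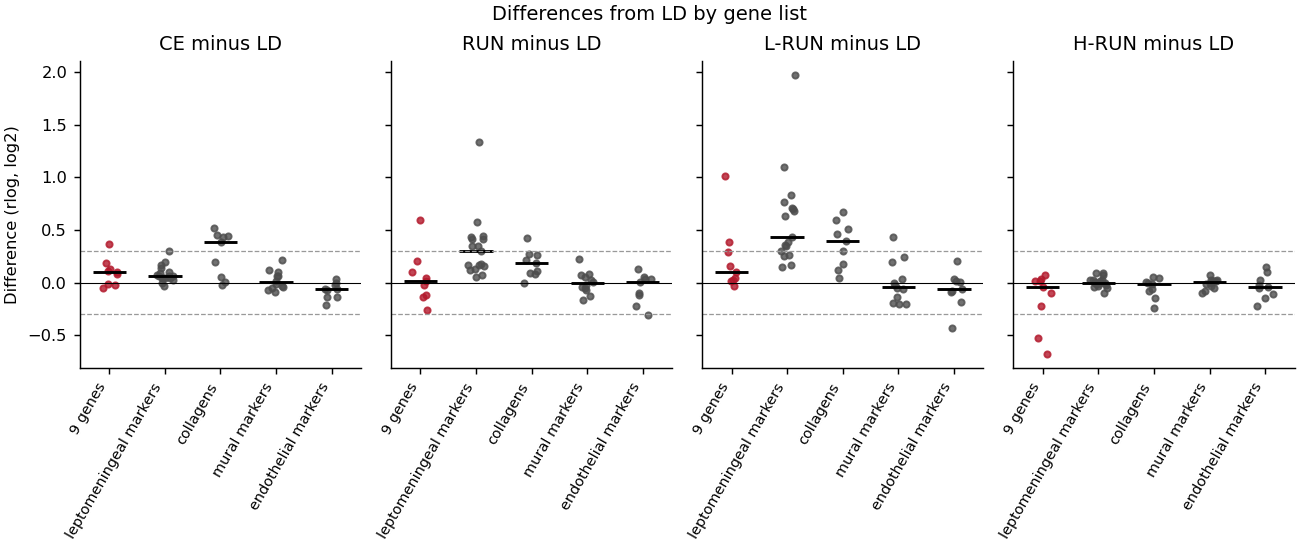
Differences from LD (rlog, log2 scale) are plotted for the 9 proteoglycan genes in red and for the expressed genes of 4 lists in grey, 1 panel per group, with black bars at the medians and dashed lines at 0.3 in either direction. In L-RUN the leptomeningeal markers (median 0.43) and collagens (0.40) lie above LD, and in H-RUN all lists lie near 0 while Dcn and Ogn lie at -0.52 and -0.68.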

How the data were processed

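RNA of the DG was sequenced as 5 pooled libraries, 1 per group. According to the methods of the study and the submitters' processing notes (CASAVA 1.8.2, TopHat2 2.0.10, HTSeq, DESeq2 1.10.1, build mm10), the authors trimmed adapters, mapped the reads, counted them on RefSeq genes and normalized all samples at once. The deposited values are regularized log values (log2 scale), with a single value for each gene in each library, and 4588 of 23420 symbols are at 0 in all libraries. Counts were not used here, so depth and counting error are unknown.

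Differences were called at 0.3 or more in size among genes with a mean of at least 5. The mixture averaged the linear values of both running pools, and the technical SD was the scaled median absolute deviation of RUN from it within each decile of mean level, converted to a difference of 2 libraries on the premise of equal noise and equal parts in the pool. Scripts were tested on simulated data. The members and all gene lists were chosen with earlier results of these data known. Named genes were the members, the 5 closest profiles to Dcn, Ogn and Fmod, and up to 4 genes per list past the cut-off against LD; Foxc1, Col5a1 among the collagens in H-RUN, Ecm2 in all libraries and the TGF-beta ligands were added for description after their values were seen. Alternatives were other cut-offs, median centring, quantile normalization, another minimum mean, removal of the trend with transcript length (lowess, fraction 0.3; 94.2% of expressed genes had a length), a baseline averaged over LD and CE, and a mixture of log values. Gene models came from GENCODE M21 and promoters from RefSeq GRCm38.p6, the build of mm10. Protein sequences were not analysed here. Software was matplotlib 3.10.9, statsmodels 0.14.6, pandas 2.3.3, numpy 2.4.6 and python 3.11.15.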

Additional observations from a re-analysis of the deposited data

Results flagged for a closer look

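Results were singled out where a gene lay on opposite sides of LD in a pair of groups, beyond 2 technical SD on each side. These differences were not tested, since each group is 1 library. Dcn was above LD in L-RUN (0.29) and below it in H-RUN (-0.52), which puts the pools 0.808 apart. Lum, its neighbour on chromosome 10, did the same over a smaller span, with 0.10 in L-RUN and -0.10 in H-RUN, 0.205 apart. These differences of Lum were only 2.1 and -2.2 technical SD. With the length trend removed, its difference in L-RUN was 0.073, which is less than 2 technical SD. Of the 13550 expressed genes, 96 (0.708%) had this pattern of L-RUN above and H-RUN below LD. Dcn was also above LD in CE (0.37) and below it in RUN (-0.12), 0.483 apart.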

How the results depend on the processing

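Median centring, quantile normalization and removal of the length trend moved each of the 63 member differences by less than 1 technical SD, and 0 of the 13 past the cut-off changed sign. Removal of the length trend put Dcn past the cut-off in L-RUN, which then held 3 members in place of 2. The counts of members past the cut-off moved by more than 1.5 times under other cut-offs. At 0.4, the count became 0 in CE and 1 in L-RUN, against 1 and 2. At 0.2, it became 3 in RUN, against 1. At 3 technical SD, an alternative chosen after seeing the data, it became 3 in CE, 4 in RUN and 4 in L-RUN against LD, 5 for CE against H-RUN and 2 for CE against L-RUN, while the share of expressed genes past it rose to between 18.4% and 32.7%. With a baseline averaged over LD and CE, L-RUN held 1 member. Over all expressed genes, the numbers higher and lower than LD at 0.3 became 16 and 9 at 0.4 and 265 and 246 at 0.2 in CE (45 and 36 at 0.3), 18 and 34, then 198 and 433 in RUN (49 and 129), 37 and 147, then 438 and 908 in L-RUN (108 and 316), and 18 and 20, then 181 and 267 in H-RUN (48 and 64). With the averaged baseline they were 35 and 49 in RUN and 64 and 209 in L-RUN. Each of these moves follows from the cut-off or baseline itself. With the mixture as the mean of log values, RUN minus the mixture went from -0.052 to 0.003 for Dcn and from under 0.001 to 0.085 for Fmod, then the largest of the 9. The technical SD was 0.0365 in that case and 0.0363 at a minimum mean of 7. No paired analysis was possible because each group has 1 library, and for the same reason no replicate could be left out.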
